A study of Mus musculus with 18 samples.

Results

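The guanylate-binding proteins (GBPs) and the immunity-related GTPases (IRGs) were examined in RNA-seq of mouse heart after a single dose of cardiac radiation. The set was fixed by name as 10 genes, Gbp2 to Gbp7, Irgm1, Irgm2, Igtp and Iigp1, of which 8 had a row among the 30072 genes of the deposited tables. These 8 were 4 GBPs (Gbp2, Gbp3, Gbp4 and Gbp7) and 4 IRGs (Irgm1, Irgm2, Igtp and Iigp1), and Gbp5 and Gbp6 were not analysed here. All 8 were among the 15054 genes that passed the filter on low values.

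The 18 mice were outbred wild-type CD-1 animals of both sexes, at least 8 weeks old, with 6 mice in each of 3 groups. Control mice (ctrl) were sham-treated littermates that underwent isoflurane anesthesia and CT imaging without therapeutic radiation, and the other groups received 25 Gy to the whole heart and were examined at 2 weeks (2 wk) or 6 weeks (6 wk) post-IR. The labels name the septum and gamma radiation, whereas the methods of the study name ventricular tissue and an X-ray platform. No sex, litter, cage or processing batch was given for single mice, and whole tissue was sequenced, so that more cells of one type and more RNA per cell cannot be told apart. The time from sham treatment to harvest was not given, and the same control group served both times. Age at harvest and time post-IR therefore cannot be told apart.

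GBPs and IRGs are large GTPases of cell-autonomous immunity that are best known for their induction by interferons. Interferon-gamma acts through JAK1 and JAK2 on gamma-activated sites (GAS), and type I interferons act through STAT2 and IRF9 on interferon-stimulated response elements (ISRE). The proteins assemble on the membranes of vacuoles that hold microbes, where IRGs of the GMS class (Irgm1, Irgm2 and Igtp) sit on host membranes and hold effector IRGs such as Iigp1 in an inactive state. GBPs join them there and take part in the opening of the vacuole and in inflammasome activation. In the uninfected heart such proteins are expressed at low levels by several cell types.

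The members lie in gene clusters, with positions given on GRCm38 from GENCODE M21. Gbp7 (142530342 to 142550149), Gbp3 (142560026 to 142573209) and Gbp2 (142620602 to 142638008) lie in a cluster on the plus strand of chromosome 3, with the relative Gbp2b between Gbp3 and Gbp2. Gbp4 lies on the minus strand of chromosome 5 (105115767 to 105139586), where its span overlaps those of its relatives Gbp8 and Gbp9. Igtp (58199556 to 58207591) and Irgm2 (58199618 to 58222782) overlap on the plus strand of chromosome 11, Irgm1 (48861968 to 48871683) lies on the minus strand of the same chromosome, and Iigp1 is on chromosome 18. All 8 are annotated as protein coding.

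The sequences just upstream of these genes are shown as a description, and their part in the levels of the members was not tested. Promoter windows from RefSeq on GRCm38.p6 were searched for 7 of the 10 listed genes, with 2 windows for Gbp3. Gbp4, Gbp6 and Iigp1 were not searched, so the counts of matches do not cover them. The 250 bases before the start were searched on both strands for a GAS (TTC, any 3 bases, GAA). They were also searched for the core of an ISRE (GAAA, any 2 bases, GAAA, which reads TTTC, 2 bases, TTTC on the other strand). The letters of the ISRE core were present upstream of 7 of the 7 genes searched and those of a GAS upstream of 4 of the 7 (Gbp5, Gbp7, Igtp and Irgm2). Among all 32851 promoter windows of the mouse, 2.98% held the ISRE core, 7.02% held a GAS and 0.332% held both. Counted by gene, as for the members, these shares were 3.46%, 8.13% and 0.4% of 27025 genes. A match of letters is a description and not a measured binding site.

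The stretches that hold these letters, with the matches in capitals, were as follows from 5′ to 3′ on the strand of each gene.
Igtp: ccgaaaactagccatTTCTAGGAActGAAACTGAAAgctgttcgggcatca
Irgm2: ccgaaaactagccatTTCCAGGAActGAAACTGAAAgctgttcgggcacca
Irgm1: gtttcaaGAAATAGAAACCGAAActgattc
Gbp2: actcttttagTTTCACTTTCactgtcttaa
Gbp3: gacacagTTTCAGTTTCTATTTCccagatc
Gbp7: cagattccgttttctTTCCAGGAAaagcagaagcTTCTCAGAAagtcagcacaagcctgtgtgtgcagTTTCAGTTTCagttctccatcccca

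On GRCm38.p6 these stretches lie at chr11:58199496-58199546 for Igtp, chr11:58214887-58214937 for Irgm2 and chr11:48871428-48871457 on the minus strand for Irgm1. The GBP stretches lie on the plus strand at chr3:142620594-142620623 for Gbp2, chr3:142559992-142560021 for Gbp3 and chr3:142530215-142530307 for Gbp7. In Igtp and Irgm2 a GAS was followed directly by an ISRE core, and 49 of the 51 bases of the 2 stretches were identical. Irgm1 held 2 overlapping ISRE cores and no GAS in its window, and Gbp3 likewise held 2 overlapping ISRE cores in the first of its windows and neither element in the other. Gbp7 held 2 GAS matches and 1 ISRE core. GENCODE M21 has an exon over all 30 bases of the Irgm1 stretch and over 22 bases of the Gbp2 stretch, so that the start differs between the annotations there. The start of Irgm2 differs as well. GENCODE M21 begins that gene at 58199618, so its stretch lies within the annotated gene, outside any exon.

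**Figure D1:**
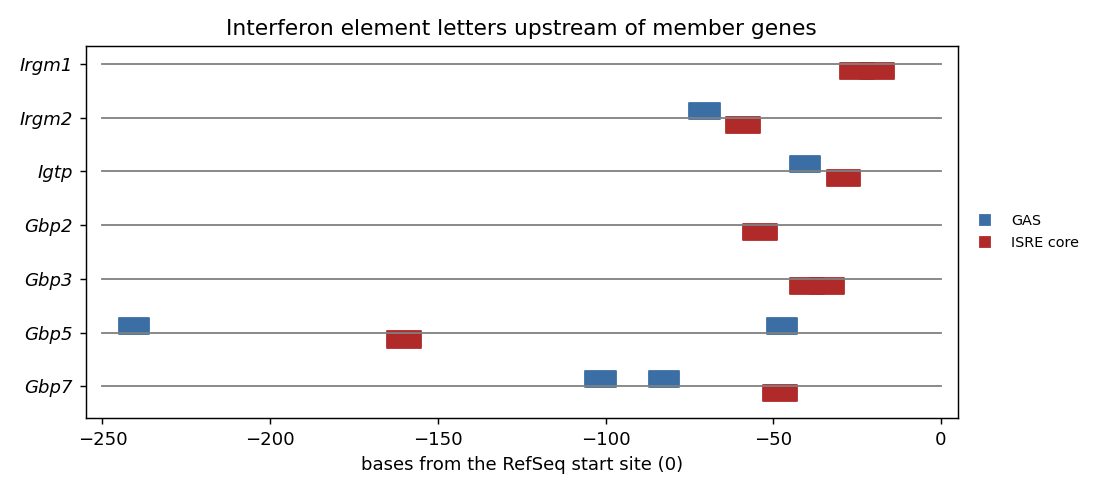
Positions of GAS and ISRE core letters in the 250 bases before the RefSeq start (x axis, in bases from the start at 0) of the 7 listed genes whose promoter windows were searched (y axis). The 2 overlapping ISRE cores of Irgm1 and of Gbp3 touch, and Gbp2, Gbp3 and Irgm1 have no GAS match in the window.

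Total estimated counts were 11522979 to 15501002 per mouse, and a count of 3, taken as the floor, equalled 0.194 to 0.260 CPM (counts scaled to a fixed library total). The members had between 21 and 1193 rounded counts in every mouse, well above that floor, which covers counting error only. Levels are given as CPM scaled by TMM, and a gene was called at a P value below 0.05 after Benjamini-Hochberg adjustment over all 15054 genes in edgeR's quasi-likelihood test. TMM scaling centres the typical gene near no change, so medians taken after it cannot show whether most genes moved against control. On the log2 scale these medians were -0.02 at 6 weeks and -0.0015 at 2 weeks post-IR. With library size only they were 0.24 at 6 weeks and 0.15 at 2 weeks. The share of counts from mitochondrial genes was 19.8% to 25.0% in control mice, 17.8% to 20.6% at 2 weeks and 16.5% to 20.05% at 6 weeks, and with these genes left out the same counts of members were called in each comparison.

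In control hearts all members were detected, at low levels in TPM, the transcript scale that corrects for gene length and allows levels of different genes to be compared. Irgm1 was highest with 9.85 ± 2.88 TPM (SD, n = 6), then Iigp1 with 6.42 ± 3.42, Gbp7 with 5.02 ± 1.74 and Gbp4 with 4.23 ± 3.42 TPM. Igtp had 3.65 ± 1.56 TPM, Gbp3 2.61 ± 1.45, Gbp2 2.34 ± 0.996 and Irgm2 1.71 ± 0.803 TPM. The control values of each gene overlapped those of the next in this order, so neighbours were not separated by the spread between mice, although Irgm1 exceeded Iigp1 within each of the 6 control mice. At 6 weeks post-IR Irgm1 (34.8 ± 11.8 TPM) and Iigp1 (30.5 ± 14.1 TPM) were still the first in order, and Igtp (19.2 ± 8.36 TPM) had moved from rank 5 to rank 3.

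At 6 weeks post-IR, 7 of the 8 members were called higher than in control and none lower, against 13.5% of all genes called higher in the same comparison. The 4 IRGs rose 2.69-fold to 3.99-fold and the 3 called GBPs rose 1.58-fold to 2.39-fold. The median log2 fold change was 1.34 over the 8 members, 1.63 over the IRGs and 0.73 over the GBPs. With a log2 fold change above 1 required as well, 5 members (4 IRGs and Gbp3) remained, against 5.27% of all genes. The difference in size between the IRGs and GBPs is a description of these lists and was not tested.

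Irgm1, the GMS-class regulator also known for its part in autophagy, had the lowest adjusted P value of the set. Its level was 11.1 CPM in the lowest control mouse, 13.9 in the median and 18.5 in the highest, compared with 21.7, 38.1 and 54.0 CPM at 6 weeks. Every irradiated mouse at 6 weeks lay above every control mouse. The fitted log2 fold change was 1.43 ± 0.24 (SE; adjusted P = 0.00027 by edgeR).

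Iigp1, the effector IRG whose polymers coat and break vacuoles, varied widely among irradiated mice. Control mice had 8.14 to 26.5 CPM with a median of 14.4, and mice at 6 weeks had 28.1 to 86.7 CPM with a median of 57.2. These groups also did not overlap, although the lowest mouse at 6 weeks was close to the highest control mouse. The log2 fold change was 1.83 ± 0.39 (adjusted P = 0.0020 by edgeR). Irgm1 and Iigp1 were the 2 of 8 members whose mice at 6 weeks all exceeded the control mice, which 5.8% of all genes tested did.

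Igtp, which encodes the GMS-class protein Irgm3 found on lipid droplets and the endoplasmic reticulum, had the largest fitted change of the members. Its level was 3.89 to 10.7 CPM in control mice (median 5.80) and 9.89 to 41.3 CPM at 6 weeks (median 27.6). A single mouse at 6 weeks, number 5, lay within the control range. On the log2 scale the rise was 2.00 ± 0.44 (adjusted P = 0.0027 by edgeR), which corresponds to 3.99-fold.

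Irgm2, the GMS-class neighbour of Igtp on chromosome 11, went from 2.31 to 8.07 CPM in control mice (median 5.48) to 6.60 to 20.9 CPM at 6 weeks (median 15.2). Again only mouse 5 at 6 weeks lay within the control range. This was a log2 fold change of 1.43 ± 0.34 (adjusted P = 0.0043 by edgeR). Igtp and Irgm2 shared 162 exonic bases on the same strand (8.01% of Igtp), and 15.9% of the 31-base words of Igtp transcripts also occurred in Irgm2, so reads from this part could be assigned to either gene. The sum of both, which such a split cannot change, was 11.9 ± 4.59 CPM in control and 41.1 ± 16.7 CPM at 6 weeks (SD, n = 6 each).

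Of the GBPs, Gbp3 changed most. It had 1.81 to 9.24 CPM in control mice (median 4.87) and 9.09 to 15.5 CPM at 6 weeks (median 12.4). Of the 6 mice at 6 weeks, 5 lay above the highest control mouse and mouse 5 lay just below it. In log2 units Gbp3 rose by 1.26 ± 0.29 (adjusted P = 0.0039 by edgeR).

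Gbp7 was the most abundant of the 4 GBPs in mean TPM in each group. It had 15.5 to 34.0 CPM in control mice (median 22.7) and 27.8 to 48.6 CPM at 6 weeks (median 41.5), with 5 of 6 irradiated mice above all control mice. Its log2 fold change was 0.70 ± 0.19 (adjusted P = 0.013 by edgeR).

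Gbp2, which is one of the most studied GBPs of the mouse in defence against intracellular parasites, changed least among the called members. It had 3.52 to 8.53 CPM in control mice (median 4.73) and 7.28 to 10.6 CPM at 6 weeks (median 8.93). The groups overlapped, with 3 of 6 irradiated mice above all control mice, and the log2 fold change was 0.66 ± 0.19 (adjusted P = 0.013 by edgeR). Its paralog Gbp2b held 4.61% of its 31-base words.

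Gbp4 was the member that was not called at 6 weeks. Its control mice spanned 6.90 to 37.3 CPM (median 13.3) and the mice at 6 weeks 16.7 to 42.3 CPM (median 25.4). The control range was set by mouse 1 with 37.3 CPM, and the next control mouse had 19.4 CPM. The log2 fold change was 0.76 ± 0.41 (adjusted P = 0.19 by edgeR), and without control mouse 1 it was 1.20 (adjusted P = 0.028 by edgeR), which raised the count of called members to 8. Of the 31-base words of Gbp4, 14.3% occurred in another gene, among them 6.91% in Gbp6, which has no row here.

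**Figure D2:**
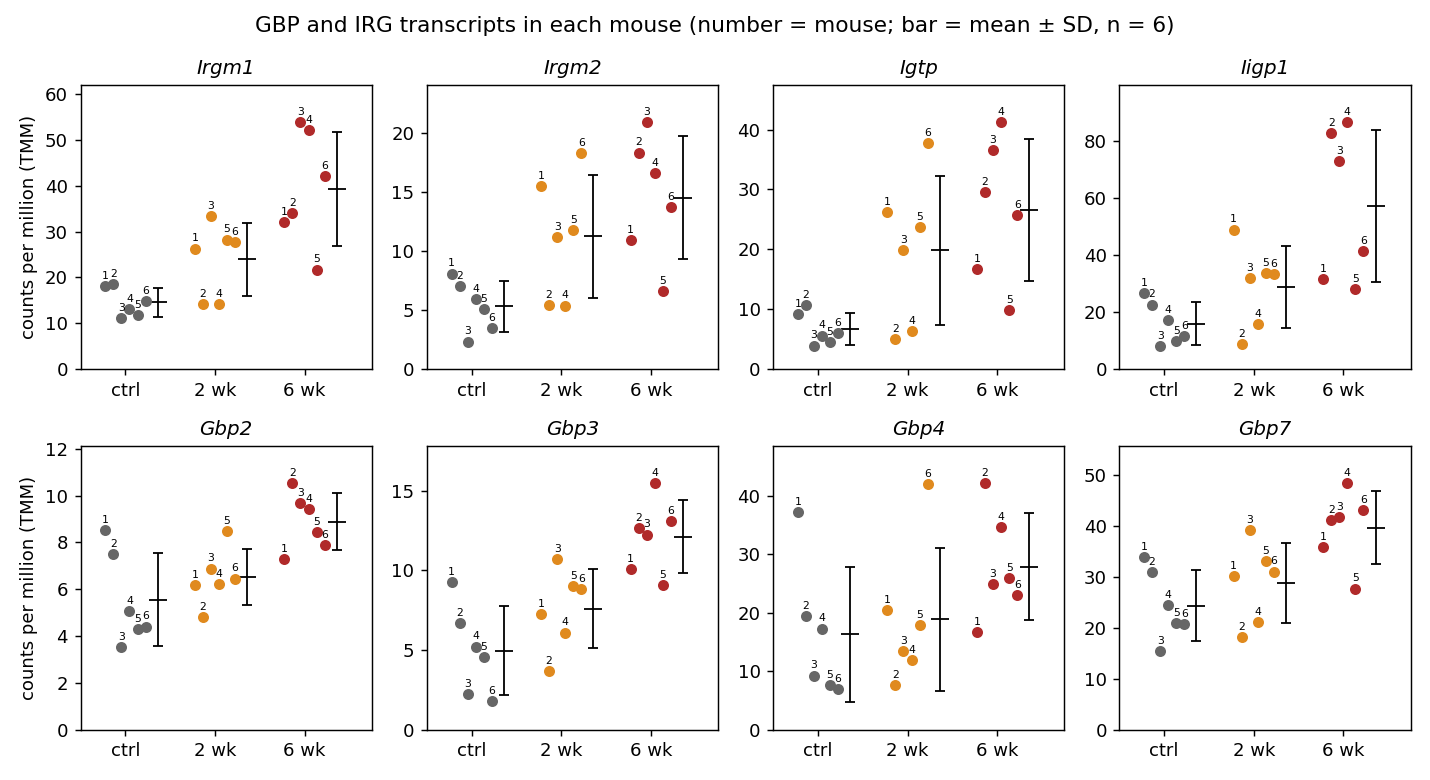
Level of each member in CPM after TMM scaling (y axis, linear from 0) in the 6 mice of each group (x axis), with the number of each mouse and the mean ± SD as a bar. Irgm1 and Iigp1 show no overlap between control and 6 weeks, and mice 2 and 4 at 2 weeks lie with the control mice for all 4 IRGs.

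At 2 weeks post-IR, 1 of the 8 members was called higher than in control (Igtp), against 3.09% of all genes, and none was called lower. Its log2 fold change also exceeded 1, which with the call was reached by 0.737% of all genes. The log2 fold changes were 0.72 to 1.57 for the IRGs and 0.19 to 0.59 for the GBPs, with a median of 0.66 over the 8 members. No member separated all 2-week mice from all control mice, which 1.96% of all genes tested did in the higher direction.

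Igtp at 2 weeks ranged from 4.97 to 37.8 CPM with a median of 21.8. Mice 1, 3, 5 and 6 had 19.8 to 37.8 CPM, above all control mice, whereas mouse 2 had 4.97 and mouse 4 had 6.34 CPM, within the control range. The log2 fold change was 1.57 ± 0.44 (adjusted P = 0.046 by edgeR). The call was near the threshold and was lost in 11 of the 18 fits that left out a mouse (control 3, 4, 5 or 6, 2-week 1, 3, 5 or 6, 6-week 2, 3 or 6; adjusted P = 0.053 to 0.12 by edgeR) and in the limma voom fits (adjusted P = 0.20 without and 0.21 with quality weights).

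The other IRGs at 2 weeks followed the same mice. Irgm1 ranged from 14.2 to 33.4 CPM (median 27.0; log2 fold change 0.72 ± 0.24, adjusted P = 0.089 by edgeR). Irgm2 ranged from 5.36 to 18.3 CPM (median 11.4; log2 fold change 1.06 ± 0.34, adjusted P = 0.080). Iigp1 ranged from 8.82 to 49.0 CPM (median 32.6; log2 fold change 0.84 ± 0.39, adjusted P = 0.23). In each of these genes mice 1, 3, 5 and 6 lay above all control mice and mice 2 and 4 did not.

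The GBPs at 2 weeks overlapped the control mice almost entirely. Gbp2 had 4.81 to 8.49 CPM (log2 fold change 0.22 ± 0.19, adjusted P = 0.56 by edgeR) and no mouse above the control range. Gbp3 had 3.69 to 10.7 CPM (0.59 ± 0.30, adjusted P = 0.28) and Gbp7 had 18.1 to 39.2 CPM (0.24 ± 0.20, adjusted P = 0.53), each with mouse 3 alone above the control range. Gbp4 had 7.62 to 42.0 CPM (0.19 ± 0.41, adjusted P = 0.84). Its highest value was that of mouse 6, without which the log2 fold change was -0.21 (adjusted P = 0.82 by edgeR).

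Counted by mouse, the 2-week group was split in the IRGs. In mice 1, 3, 5 and 6 all 4 IRGs exceeded the highest control mouse, and in mice 2 and 4 none of the 8 members did. Mouse 2 was the lowest 2-week mouse for 6 of the 8 members and mouse 4 for the other 2. Mouse 3 had 2 GBPs, mouse 6 had 1 GBP and mice 1 and 5 had no GBP above the control range.

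The same mice were set apart in other interferon targets. Of 12 targets used as markers of type I interferon, 8 to 12 exceeded all control mice in mice 1, 3, 5 and 6, compared with 3 in mouse 2 and 1 in mouse 4. Of 11 targets used for interferon-gamma, 6 to 7 did so in mice 1, 3, 5 and 6 and 2 in each of mice 2 and 4. The summed level of 7 macrophage markers was 181 CPM in mouse 2, the lowest of the group, and 226 CPM in mouse 4. In mice 1, 3, 5 and 6 it was 192 to 236 CPM. T and NK cell markers summed to 2.25 CPM in mouse 2 and 2.62 CPM in mouse 4, compared with 1.98 to 4.11 CPM in the other 4 mice. The summed level of 6 cardiomyocyte markers was 38390 CPM in mouse 2 and 36270 CPM in mouse 4, above the 29930 to 34240 CPM of the other 4 mice. The part of these cell markers in the split was not tested. With total counts of 12963009 and 14941606, mice 2 and 4 were the lowest and the highest of their group in depth.

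At 6 weeks every mouse had at least 2 members above the highest control mouse. Mouse 2 had all 8, mice 3 and 4 had 7, and mice 1 and 6 had 6. Mouse 5 had only Irgm1 and Iigp1, and was the lowest of its group for 6 of the 8 members. In mouse 5 the macrophage markers summed to 269 CPM, close to the group median of 270, the cardiomyocyte markers to 26220 CPM within 23220 to 30330 CPM for the group, and 11 of the 12 type I targets but 4 of the 11 interferon-gamma targets exceeded the control mice. In the control group mouse 1 was the highest for 6 members and mouse 3 the lowest for 6.

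**Figure D3:**
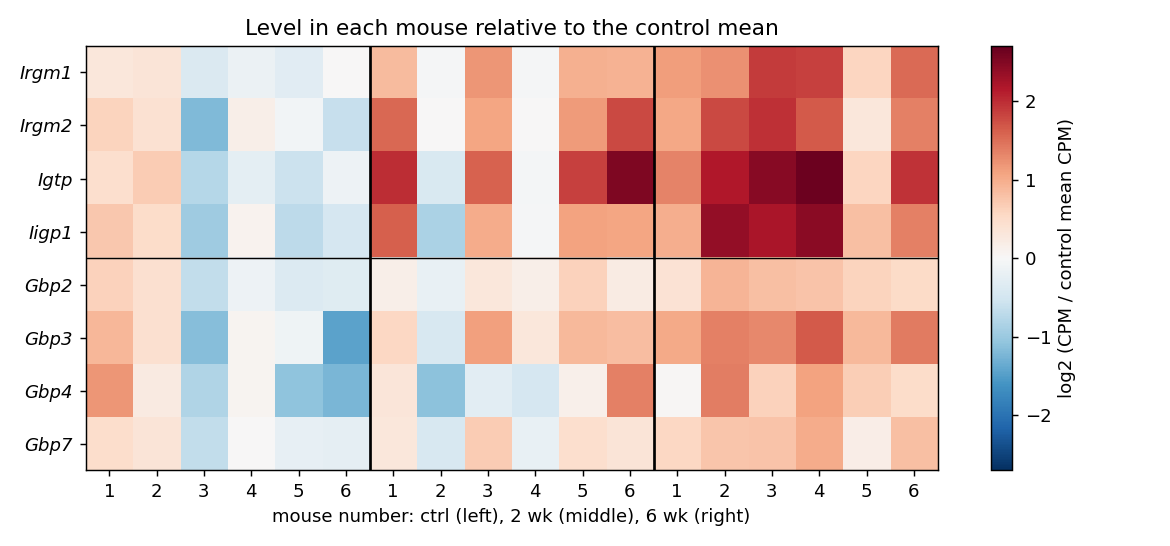
Level of each member (rows) in each mouse (columns, numbered within its group) as the log2 ratio of its CPM to the control mean, with red above and blue below. Columns 2 and 4 of the 2-week block and column 5 of the 6-week block are paler than their neighbours in the 4 IRG rows at the top.

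Members moved together from mouse to mouse. Over the 18 mice, Pearson's r between the log2 CPM of 2 members was 0.65 to 0.95 over the 28 pairs, with a median of 0.88. After subtraction of the group means the median was 0.77, with 0.82 to 0.92 for the 6 pairs of IRGs, 0.66 to 0.87 for the 6 pairs of GBPs and 0.49 to 0.89 for the 16 mixed pairs. The lowest of these was between Gbp4 and Irgm1. The values share libraries and scaling factors, and are given as a description.

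Among the 5 genes whose log2 CPM was most like the mean standardized level of the 8 members over the 18 mice were Tap1 (r = 0.96), Stat2 (0.94), Parp14 (0.93) and Gm12250 (0.93). After subtraction of the group means the first 5 held Tap1 (0.93), Tgtp1 (0.90), Gm12250 (0.90) and Stat2 (0.88). Tap1 encodes a peptide transporter of antigen presentation, Stat2 a transcription factor of type I interferon signaling, and Parp14 an ADP-ribosyltransferase. Gm12250, annotated as a processed pseudogene, and Tgtp1 are themselves of the IRG family.

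No member was called between 2 and 6 weeks post-IR by edgeR, against 3.31% of all genes called higher and 2.01% called lower at 6 weeks. All 8 log2 fold changes were above 0, from 0.37 (Irgm2) to 0.99 (Iigp1), with a median of 0.51, and 5 of the 8 had an unadjusted P value below 0.05, as did 21.3% of all genes. Irgm1 came nearest to the threshold, with 24.0 ± 7.97 CPM at 2 weeks and 39.3 ± 12.5 CPM at 6 weeks (log2 fold change 0.71 ± 0.23, adjusted P = 0.078), and it was called by DESeq2 (adjusted P = 0.036) and by edgeR without 6-week mouse 5 (adjusted P = 0.040). For Igtp (0.42 ± 0.40) and Irgm2 (0.37 ± 0.31) the difference between the times was of the size of its error. The comparisons of 2 and 6 weeks with control share the same 6 control mice.

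**Figure D4:**
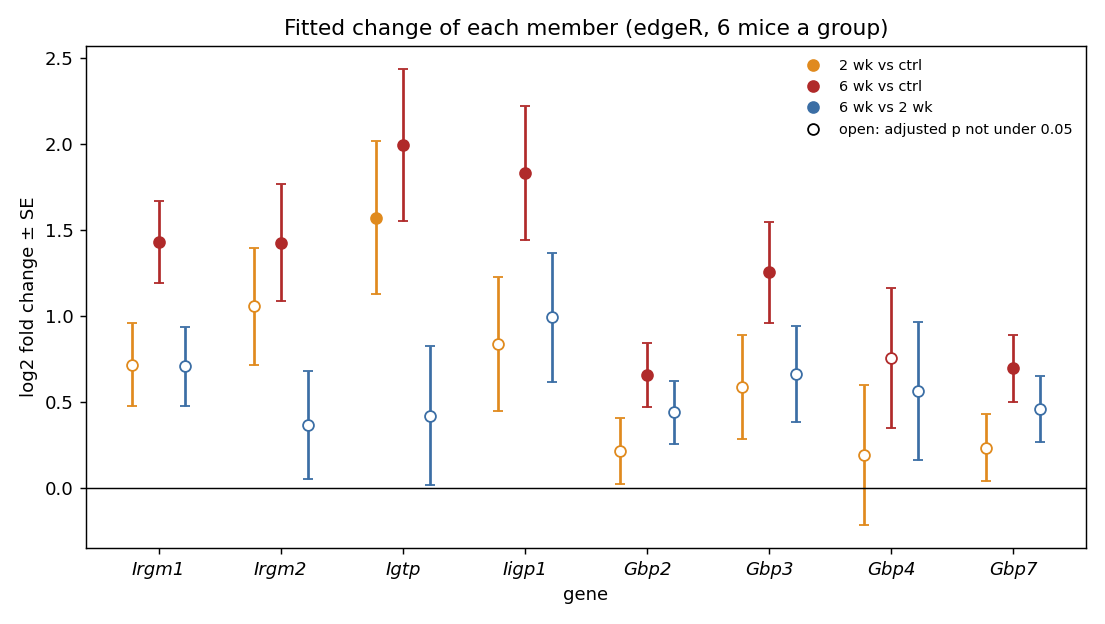
Log2 fold change ± SE of each member (x axis) in the 3 comparisons, from edgeR with 6 mice a group, with filled points for an adjusted P value below 0.05. All red points except Gbp4 are filled, 1 orange point (Igtp) is filled and no blue point is.

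Of 15 further GBP and IRG family genes, 14 had a row and 13 were tested. At 6 weeks 8 of the 13 were called higher and none lower (median log2 fold change 1.08), and at 2 weeks 2 of the 13 were called higher (median 0.41). Neither call at 2 weeks held without the filter on low values or with the replicate number as a block in the model (the replicate block), each of which gave a count of 0, and the count was 0 to 2 when a mouse was left out. Irgc1 did not pass the filter, with at most 4 rounded counts in a mouse. Irgq, a diverged IRG-like gene, had 40.3 ± 4.39 CPM in control and 41.1 ± 1.83 CPM at 6 weeks (log2 fold change 0.03 ± 0.07, adjusted P = 0.80 by edgeR).

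F830016B08Rik, a neighbour of Iigp1, was called at both times, at 2 weeks near the threshold. It rose from 11.9 ± 5.53 CPM in control to 41.6 ± 27.3 CPM at 2 weeks (log2 fold change 1.79 ± 0.51, adjusted P = 0.047 by edgeR) and 73.4 ± 41.8 CPM at 6 weeks (2.60 ± 0.51, adjusted P = 0.0010). The call at 2 weeks was lost in 13 of the 18 fits that left out a mouse (control 2, 3, 4, 5 or 6, 2-week 1, 3, 5 or 6, 6-week 2, 3, 4 or 6; adjusted P = 0.051 to 0.12 by edgeR) and by limma voom (adjusted P = 0.18), whereas the call at 6 weeks held under all 32 alternatives. Gm4841, of the same cluster, rose from 0.467 ± 0.482 CPM to 11.2 ± 8.83 CPM at 6 weeks (4.49 ± 0.80, adjusted P = 0.00051). Its control mice were near the floor of 3 counts, so the size of this change is loosely set.

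Among the long IRG-like genes, 9930111J21Rik2 was called in each of the 3 comparisons. It had 23.4 to 32.7 CPM in control mice, 33.0 to 40.9 CPM at 2 weeks and 41.5 to 62.5 CPM at 6 weeks, with no overlap between neighbouring groups. The log2 fold change was 0.38 ± 0.11 at 2 weeks (adjusted P = 0.045 by edgeR) and 0.89 ± 0.11 at 6 weeks (adjusted P = 1.2e-05). The call at 2 weeks was lost in 12 of the 18 fits that left out a mouse (control 2, 3 or 5, 2-week 1, 2, 3, 5 or 6, 6-week 1, 3, 4 or 5; adjusted P = 0.051 to 0.10 by edgeR), and the call between 2 and 6 weeks held under all 32 alternatives. Its copy 9930111J21Rik1 was called at 6 weeks (0.83 ± 0.18, adjusted P = 0.0022), and reads of these near-identical genes may have been split between them. The same holds for Tgtp1 (0.37 ± 0.47, adjusted P = 0.62) and Tgtp2 (1.08 ± 0.42, adjusted P = 0.067).

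Among the GBP relatives at 6 weeks, Gbp9 rose from 16.2 ± 8.62 to 31.6 ± 8.78 CPM (log2 fold change 0.94 ± 0.28, adjusted P = 0.018 by edgeR) and Gbp8, below 1 CPM on average, was also called (1.57 ± 0.53, adjusted P = 0.035), a call that was lost without control mouse 3, 5 or 6, without 6-week mouse 3, 4 or 6, and with the replicate block. Gbp4, Gbp8 and Gbp9 share 60 to 61 exonic bases pairwise. Gbp2b was 7.99 ± 3.37 CPM in control and 9.84 ± 1.52 CPM at 6 weeks (0.29 ± 0.22, adjusted P = 0.37). Of the other interferon-induced large GTPases, the antiviral Mx1 (3.79 ± 0.51, adjusted P = 3.7e-05) and Mx2 (2.12 ± 0.35, adjusted P = 0.00026) rose at 6 weeks, and Gvin1 did not pass (0.47 ± 1.04, adjusted P = 0.79).

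The ligands above this family were scarcely detected. Ifng, which encodes interferon-gamma, had 4 rounded counts over all 18 mice, Ifnb1 had 1 and Ifna4 had 0, and none was tested. With at most 1 count of Ifng in a mouse, the level lay under the floor of 0.194 to 0.260 CPM in each mouse, and a difference was not detectable at this depth. Il12a, Il12b and Il18 did not pass the filter either.

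The receptors were expressed and changed little. Ifngr1 did not pass at 6 weeks (log2 fold change 0.26 ± 0.11, adjusted P = 0.084 by edgeR). Ifngr2 fell, with 173 to 190 CPM in control mice and 127 to 156 CPM at 6 weeks, no overlap, and a log2 fold change of -0.33 ± 0.05 (adjusted P = 0.00024). This call depended on the scaling between mice, since the log2 fold change was -0.06 with library size only and 0.04 with either TPM pseudocount, and was not called there. The type I receptor genes Ifnar1 (0.48 ± 0.08, adjusted P = 0.00040) and Ifnar2 (0.37 ± 0.08, adjusted P = 0.0016) rose at 6 weeks. Genes called lower made up 11.5% of all genes at 6 weeks.

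In the relay from receptor to promoter, 5 of 8 genes were called higher at 6 weeks and 2 at 2 weeks, and none was called lower. Irf8, a factor of myeloid cells that binds with its partners to ISRE-like sites, rose at 2 weeks (0.94 ± 0.17, adjusted P = 0.0044) and at 6 weeks (1.61 ± 0.17, adjusted P = 3.1e-06), with no overlap with control at either time. Both calls of Irf8 held under all 32 alternatives. Irf9 was called at both times and Stat2, Tyk2 and Irf2 at 6 weeks. At 2 weeks Irf9 was lost without control mouse 3, 5 or 6, without 2-week mouse 1, 3, 5 or 6 and without 6-week mouse 6. It was also lost there with limma voom with and without quality weights and with the replicate block. At 6 weeks Irf2 was lost without control mouse 1, 3 or 4 and without 6-week mouse 4, 5 or 6. It was also lost there with limma voom with quality weights, without the filter and with the replicate block. Irf1 (0.33 ± 0.13, adjusted P = 0.061), Jak1 and Jak2 did not pass.

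Of 4 inhibitors, Socs1 (log2 fold change 0.86 ± 0.26, adjusted P = 0.019 by edgeR), Socs3 (0.996 ± 0.16, adjusted P = 0.00020) and Usp18 (2.73 ± 0.41, adjusted P = 0.00011) rose at 6 weeks, and Socs3 was also called at 2 weeks. Socs1 at 6 weeks was lost without 6-week mouse 3 (adjusted P = 0.053), and Socs3 at 2 weeks in 12 of the 18 fits that left out a mouse (control 1, 2, 5 or 6, any 2-week mouse, 6-week 1 or 3). The call of Socs3 at 2 weeks was also lost without the filter and with the replicate block. SOCS1 and SOCS3 dampen JAK signaling and USP18 dampens the type I receptor. Ptpn2 differed by 0.02 ± 0.08 (adjusted P = 0.86).

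Most of the other targets used as references were also called higher at 6 weeks. Of 11 genes known for induction by interferon-gamma, 8 were called higher (median log2 fold change 1.21), among them the chemokine genes Cxcl9 (1.42 ± 0.27, adjusted P = 0.00088 by edgeR) and Cxcl10 (3.81 ± 0.46, adjusted P = 1.2e-05) and the class II regulator Ciita (1.96 ± 0.30, adjusted P = 0.00014). Psmb9 (0.68 ± 0.27, adjusted P = 0.076), Tap2 (0.45 ± 0.24, adjusted P = 0.19) and Ido1 (0.41 ± 0.46, adjusted P = 0.57) did not pass. Of 12 genes known for induction by type I interferon, 12 were called higher (median 2.42), among them Irf7 (3.51 ± 0.40, adjusted P = 8.8e-06) and Ifit1 (3.21 ± 0.39, adjusted P = 1.5e-05). Both lists respond to either interferon in part, and several of their genes are shared targets. The difference between the lists was not tested.

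Between 2 and 6 weeks the counts of calls differed between the lists. None of the 8 members was called, compared with 3 of 11 interferon-gamma targets (Cxcl9, Cxcl10 and Icam1) and 8 of 12 type I targets. Of all genes, 3.31% were called higher. By size the members and the interferon-gamma targets were alike, with median log2 fold changes of 0.51 and 0.47. The median of the type I targets was 1.35. The count of type I targets was 3 to 4 without 2-week mouse 1, 2, 4 or 6 or 6-week mouse 3 or 6, and 4 with the replicate block. Icam1 was lost without 2-week mouse 1, 2, 4 or 6, without 6-week mouse 1, 3, 5 or 6, and with the replicate block. Irf7 rose by 2.03 on the log2 scale between these times (adjusted P = 0.0057 by edgeR) and Cxcl9 by 1.60 (adjusted P = 0.0038), and both calls held under all 32 alternatives. These counts are set beside each other, and a difference between the lists was not tested.

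Few genes of membrane loading or prenylation were called. Of 8 genes of the ATG conjugation and GABARAP group, which IRGs and GBPs need to load onto vacuoles, none was called higher at either time, and Gabarapl1 was called lower at 2 weeks (log2 fold change -0.29 ± 0.07, adjusted P = 0.029 by edgeR; 1.93% of all genes were called lower) and at 6 weeks (-0.34 ± 0.08, adjusted P = 0.0027). Gabarapl1 was not called at either time with library size only or TPM, with values of -0.08 to 0.06 at 6 weeks, and at 2 weeks it was also lost without control mouse 3 or 5 and without 2-week mouse 1, 2, 4 or 6. Of 6 genes of protein prenylation and CaaX processing, none was called at either time (edgeR; 2 of 6 had an unadjusted P value below 0.05 at each time, as did 20.4% of all genes at 2 weeks and 36.2% at 6 weeks). Of 6 inflammasome genes that act downstream of GBPs, 5 were called higher at 6 weeks and none at 2 weeks. These were Casp1 (0.85 ± 0.25, adjusted P = 0.019), Casp4 (1.09 ± 0.20, adjusted P = 0.00065), Nlrp3 (1.87 ± 0.28, adjusted P = 0.00011), Aim2 (0.97 ± 0.32, adjusted P = 0.034) and Gsdmd (0.34 ± 0.12, adjusted P = 0.042). Aim2, at 0.397 CPM on average in control and 0.796 CPM at 6 weeks, was lost without control mouse 1 or 6 and without 6-week mouse 3 or 6. It was also lost with DESeq2, with limma voom with and without quality weights, without the filter and with the replicate block. Gsdmd was lost without control mouse 3, 4 or 6 and without 6-week mouse 1, 2, 3 or 4. It was also lost with limma voom with quality weights, without the filter and with the replicate block.

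**Figure D5:**
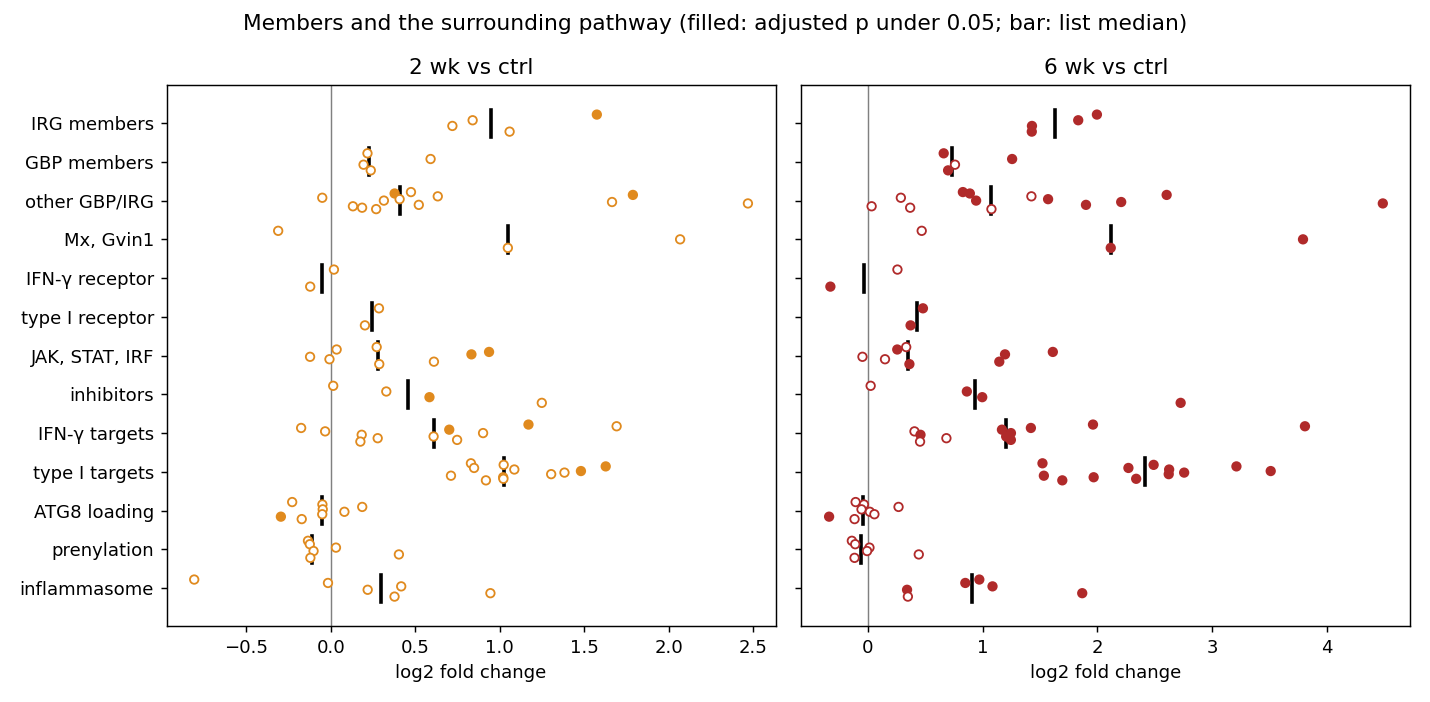
Log2 fold change (x axis) of each tested gene in the members and the pathway lists (y axis) at 2 weeks (left) and 6 weeks (right) against control, with filled points for an adjusted P value below 0.05 and a black bar for the median of each list. The type I targets have the highest list median at 6 weeks (2.42), with all 12 points filled, although single points of other lists (Gm4841, Cxcl10 and Mx1) lie farther to the right, and the medians of the ATG8 loading and prenylation lists lie near 0.

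Cell type markers moved in the same comparison, and their part in the results was not tested. At 6 weeks 6 of 7 macrophage markers were called higher (Mrc1 at adjusted P = 0.0496 by edgeR, lost in 14 of the 18 fits that left out a mouse), and their summed level was 246 to 348 CPM compared with 105 to 264 CPM in control mice (exact permutation test, two-sided, P = 0.0065, adjusted over 27 tests 0.022). The summed level of 12 T and NK cell markers was 4.89 to 8.52 CPM at 6 weeks and 1.57 to 2.71 CPM in control mice (exact permutation P = 0.0022, the smallest that 6 mice against 6 can give; adjusted 0.015). Among these, Cd3d, Cd3g, Trac, Klrb1c and Ncr1 did not pass the filter, and Gzmb had no count in the control mice. At 2 weeks the macrophage sum was 181 to 236 CPM (exact permutation P = 0.065, adjusted 0.16) and the T and NK sum 1.98 to 4.11 CPM (exact permutation P = 0.089, adjusted 0.18). Single markers were nevertheless called higher at 2 weeks, namely C1qa of macrophages (log2 fold change 0.58 ± 0.15, adjusted P = 0.027 by edgeR) and Gzmb (0.199 CPM on average, adjusted P = 0.0498). These calls were lost in 6 and in 14 of the 18 fits that left out a mouse. Gzmb was also lost in 6 of the 13 other fits in which it was tested.

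Markers of B cells also rose in sum, to 1.13 to 2.48 CPM at 6 weeks from 0.431 to 0.716 CPM (exact permutation P = 0.0022, adjusted 0.015). At 2 weeks the B cell sum was 0.327 to 2.85 CPM and also passed (exact permutation P = 0.017, adjusted 0.047). Neutrophil markers stayed at or below 2.19 CPM in sum in every mouse. Of 6 endothelial markers, 2 were called higher at 6 weeks (Pecam1 and Cdh5) and 2 lower (Tie1 and Tek), and their sum rose to 882 to 1199 CPM from 743 to 916 CPM (exact permutation P = 0.0043, adjusted 0.022). At 2 weeks Pecam1 was called higher (log2 fold change 0.48 ± 0.08, adjusted P = 0.0037 by edgeR) and Tie1 and Tek lower, and the endothelial sum was 808 to 923 CPM (exact permutation P = 0.18, adjusted 0.30). The call of Tie1 at 2 weeks was lost in 12 of the 18 fits that left out a mouse, and that of Tek in 3. Tie1 was also lost there with upper quartile scaling, without the filter and with the replicate block. Of 5 fibroblast markers 1 was called lower at both times (Pdgfra). Of 6 cardiomyocyte markers, 5 were called lower at 6 weeks, and their sum fell from a mean of 37260 to 26590 CPM (exact permutation P = 0.0065, adjusted 0.022). With library size only or TPM, Tie1 at either time and Tek and Pdgfra at 2 weeks were not called. The same held at 6 weeks for the cardiomyocyte genes Myh6, Myl2 and Tnnt2. Actc1 at 6 weeks was not called with either TPM pseudocount. In the 18 fits that left out a mouse, Tnnt2 at 6 weeks was lost in 9, Myh6 in 4 and Myl2 in 3. Ryr2 at 6 weeks held under all 32 alternatives. The cardiomyocyte sum was taken only on CPM scaled by TMM, and was at least 23220 CPM in every mouse. Markers of atrium (Sln, Myl4 and Myl7) summed to 0.661 to 583 CPM over the mice without a called change. None of 5 smooth muscle and pericyte markers was called at either time by edgeR, with 1 of 5 at an unadjusted P value below 0.05 at 2 weeks and 0 of 5 at 6 weeks.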

How the data were processed

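RNA-seq libraries from the hearts of 18 mice were analysed, 6 per group, each mouse as 1 replicate. The authors aligned reads to GRCm38 with STAR, quantified transcripts with Salmon 1.0 (the version in the submitters' processing notes) and summed them to genes with tximport. The deposited estimated counts are not normalized between mice, and the deposited TPM values are scaled for length and depth within each mouse by the authors. Transcripts that share sequence were divided by this estimation, which can shift reads between GBP or IRG paralogs.

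After rounding of the estimated counts, edgeR 4.0.16 (R 4.3.3) was used. A gene entered the fit when 6 or more mice had 0.23 CPM or more, TMM scaling was applied, and 1 quasi-likelihood model of the 3 groups was fitted. The SE is the absolute log2 fold change divided by the square root of F. Single sums per mouse were compared by exact permutation tests, two-sided, over 924 splits. In data simulated for 6 weeks against control, with 30072 genes before the filter, 200 of 200 changed genes were recovered with 11 false calls. The simulation gave every gene the same spread between mice. It changed only well-counted genes, by a log2 fold change of at least 1 in either direction. The recovery therefore does not give the power for genes that vary as widely as the members or that change less.

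The members, lists and tests were chosen with earlier results of these data known. Besides the members, a listed gene could be named where it was called, did not overlap with control, or was a ligand or receptor, and otherwise as a member of a list with its value; the 5 genes most like the members were named by r. Groups came from the labels. Alternatives used limma 3.58.1 and DESeq2 1.42.0, other scalings and filters, TPM with a pseudocount of 1 or 0.1, a replicate block, a Y-linked covariate and leaving out each mouse. No 2 libraries were identical (0 of 153 pairs), and 0 columns of other samples were present. Results for 1 further gene of the pathway are not reported here.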

Additional observations from a re-analysis of the deposited data

Results flagged for a closer look

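In the 2-week group, Gbp4 in mouse 6 stood apart at 42.0 CPM, with the next highest mouse at 20.4 CPM. The gap was 0.628 of the range of the 6 mice, above the 95% critical value of Dixon's test for 6 values. Of the 24 groups of 6 mice tested over the 8 members, 1 passed this limit, and chance passes about 1 in 20.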

How the results depend on the processing

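At 6 weeks against control, 7 or 8 of the 8 members were called under all 32 alternatives, and Gbp4 was the member that varied. With a log2 fold change above 1 also required, 8 passed with log2(TPM + 0.1), and 5 to 6 when a mouse was left out. At 2 weeks the count of 1 was 3 with DESeq2, 3 with library size only, 4 with log2(TPM + 1), 3 with log2(TPM + 0.1), 0 with limma voom, 0 with its quality weights, 0 without a filter and 0 with the replicate block, and ranged from 0 to 3 when a mouse was left out. Without 2-week mouse 4, Irgm1 (adjusted P = 0.045 by edgeR) and Irgm2 (adjusted P = 0.044) were also called. Between 6 and 2 weeks the count of 0 was 1 with DESeq2, quality weights, library size only and log2(TPM + 1), and 0 to 1 when a mouse was left out. The direction of Gbp4 at 2 weeks was reversed without mouse 6 of that group (-0.21) and was 0.63 without control mouse 1, and no other member changed direction. With library size only the median of all genes went from -0.02 to 0.24 at 6 weeks and from -0.0015 to 0.15 at 2 weeks, and the members stayed 1.35 and 0.65 above it. Pathway-list genes called higher at 6 weeks numbered 45, 68 with either TPM pseudocount and 40 to 62 under the other alternatives that kept every mouse; at 2 weeks they numbered 9, with 3 (replicate block) to 38 (log2(TPM + 0.1)) under the alternatives that kept every mouse. When a mouse was left out they numbered 2 to 13 at 2 weeks, with 2 to 5 without control mouse 2, 3, 5 or 6 or 2-week mouse 1, 3, 5 or 6. Between 6 and 2 weeks they numbered 18, and 8 to 21 when a mouse was left out, with 8 to 9 without 2-week mouse 2 or 4 or 6-week mouse 3 or 6. Mice with the same number did not deviate together (r of -0.08 to 0.11). What the replicate number stands for was not given, so these values cannot settle whether the block belongs in the model. In levels by TPM, 6 to 8 members kept their rank in control mice when a mouse was left out. The causes of these differences were not tested. At 21 counts in the lowest mouse, counting error limits the low members.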
